A study of Mus musculus with 18 samples.

Results

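Replication-dependent histone genes were followed in heart, kidney and liver of mice on a ketogenic diet or on chow. They are the genes of the deposited count tables whose symbol starts with Hist1h, Hist2h, Hist3h or Hist4h. The rule found 68 of the 22609 genes listed, namely 6 for the linker histone H1, 18 for H2A, 19 for H2B, 12 for H3 and 13 for H4. Of these, 54 lie in the Hist1 cluster on chromosome 13, 10 in the Hist2 cluster on chromosome 3, 3 in the Hist3 cluster on chromosome 11, and 1, Hist4h4, on chromosome 6. The organs came from C57BL/6J mice (a common inbred strain) that were wild type, and their RNA was sequenced. The ketogenic group was given food with 90% fat, 9.7% protein and 0.3% carbohydrate for 21 days, starting at 4 weeks of age, and the other group was given standard chow over the same time. Both groups were wild type, and no genotype other than wild type and no drug enters these comparisons. Each of the 6 combinations of diet and organ had 3 libraries that the labels call biological replicates.

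Core histones H2A, H2B, H3 and H4 form the protein spool on which DNA is wrapped, and H1 binds the DNA between spools. Replication-dependent histone genes have no introns in their usual form and are transcribed mainly in S phase, when new DNA has to be packaged. Their mRNAs mostly end in a conserved stem-loop in place of a poly(A) tail. The stem-loop is bound by the protein Slbp and the mRNA is degraded when DNA synthesis stops, while some of these genes also make polyadenylated transcripts from sites farther downstream.

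The stem-loop is shown first because the members differed in how far their annotated transcript runs beyond it. The sequences are from GENCODE M21 transcripts (GRCm38 build), 5′ to 3′ with T for U, and the capitals mark the 16 bases of the stem-loop within 5 flanking bases on each side. The first 3 belong to genes that were lower on the ketogenic diet in every organ, and their transcripts end 46 to 108 bases after the stem-loop. The other 4 belong to genes with a small difference or a different direction in liver, and 3 of their transcripts run on for 454 to 2445 bases.
Hist1h2bm: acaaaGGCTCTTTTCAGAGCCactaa
Hist1h3g: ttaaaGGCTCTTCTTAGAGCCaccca
Hist1h4a: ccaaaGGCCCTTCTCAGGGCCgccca
Hist1h1c: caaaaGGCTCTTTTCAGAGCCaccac
Hist1h4c: caaaaGGCCCTTTTCAGGGCCaccca
Hist4h4: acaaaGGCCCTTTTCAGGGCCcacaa
Hist1h4h: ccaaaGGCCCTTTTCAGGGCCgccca

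Hist1h4h was the exception among the last 4, with a transcript that ends 46 bases after the stem-loop. The search, on the transcript strand, was for 16 bases that start with GG and end with CC, with arms of 6 bases that pair (G with U included), the first arm ending in T and the second starting with A. It found the stem-loop in 45 of the 67 members that have a GENCODE transcript, and in 2.28% of 141767 transcripts overall. Within the 45, 25 shared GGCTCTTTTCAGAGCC and 7 shared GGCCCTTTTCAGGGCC. Hist1h2bm and Hist1h1c, which differed in their response to the diet, carry the same 16 bases.

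Promoters are shown for members that moved together or apart. The windows are 250 bases before to 50 bases after the gene start, from RefSeq (GRCm38.p6), and 61 of the 68 members matched an entry. The capitals mark matches, on either strand, to TATAAA (the TATA box), CCAAT (bound by NF-Y), AAACACA (the AC box of H1 genes), ATTTGCAT (the octamer of H2B genes), and TTTCGCGC or TTTGGCGC (E2F sites). Hist1h1b (RefSeq symbol H1f5, chr13:21780576-21780875, minus strand) and Hist1h1c (H1f2, chr13:23738557-23738856, plus strand) are linker histone genes with unlike diet differences. The window of the H2A gene Hist1h2ag (H2ac11, chr13:22042900-22043199, minus strand) overlaps that of the H2B gene Hist1h2bj, which is transcribed away from it.
Hist1h1b: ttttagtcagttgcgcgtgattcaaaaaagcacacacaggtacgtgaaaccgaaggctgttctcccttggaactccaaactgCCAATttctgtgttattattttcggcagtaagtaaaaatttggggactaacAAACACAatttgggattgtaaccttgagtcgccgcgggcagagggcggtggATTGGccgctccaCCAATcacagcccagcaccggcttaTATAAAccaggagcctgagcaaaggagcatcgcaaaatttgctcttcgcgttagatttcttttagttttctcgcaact
Hist1h1c: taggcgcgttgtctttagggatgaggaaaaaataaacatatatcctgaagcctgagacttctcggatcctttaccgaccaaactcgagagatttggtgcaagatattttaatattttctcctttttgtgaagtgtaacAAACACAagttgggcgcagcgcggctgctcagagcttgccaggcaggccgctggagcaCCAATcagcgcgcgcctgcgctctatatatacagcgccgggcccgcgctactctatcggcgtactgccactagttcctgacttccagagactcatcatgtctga
Hist1h2ag: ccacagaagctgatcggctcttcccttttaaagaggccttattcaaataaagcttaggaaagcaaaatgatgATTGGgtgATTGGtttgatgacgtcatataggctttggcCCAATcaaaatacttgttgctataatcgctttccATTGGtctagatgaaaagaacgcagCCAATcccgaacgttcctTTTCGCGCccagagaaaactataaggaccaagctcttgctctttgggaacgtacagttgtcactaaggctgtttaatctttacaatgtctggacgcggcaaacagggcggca

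TATAAA was present in 35 of the 61 windows (57.4%, against 13.6% of 32851 RefSeq promoters of the same length). CCAAT was present in 52 (85.2%, against 37.4%), which were all windows of H1, H2A, H2B and H3 members and 3 of the 12 of H4 members. ATTTGCAT was found in 14 windows (23%, against 1.74%), 7 of H2A and 7 of H2B members. AAACACA was found in 9 (14.8%, against 7.18%), including 5 of the 6 H1 windows, and the E2F letters in 9 (14.8%, against 0.813%), 5 of H2A and 4 of H2B members. No searched motif lies within another. Hist1h1b and Hist1h1c shared the AC box and CCAAT, and Hist1h1b also had TATAAA. Hist1h1e, a linker histone gene with smaller diet differences than Hist1h1b in every organ, had the AC box, CCAAT and TATAAA as well. A match is a run of letters and was not tested as a binding site.

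The libraries held 16135276 to 22767878 counts in heart, 16173996 to 19923905 in kidney and 18151967 to 23835383 in liver, and histone genes made up 416.6 to 1690 of each 1000000 counts. Levels below are counts per 1000000 (CPM) of the library size after TMM scaling, which adjusts for composition. In heart and in liver, the first and second ketogenic libraries (replicates 1 and 2) were close to identical apart from counting noise (median chi-square over genes 0.666 and 0.698, where counting alone gives 0.455 and the other 16 pairs within a group gave 1.23 to 4.2). Each such pair was counted as 1 sample, so n = 2 ketogenic against 3 chow samples in heart and liver, and 3 against 3 in kidney. Heart, kidney and liver libraries were each highest in their own tissue markers: the summed level of cardiomyocyte markers was 49125 to 66012 CPM in hearts, that of kidney tubule markers 27133 to 38038 CPM in kidneys, and that of hepatocyte markers 67032 to 118700 CPM in livers. Chow heart replicate 3 stood apart in its atrial markers, with a sum of 11987 CPM against at most 97.8 CPM in the ketogenic hearts. The same library had the lowest summed histone level of the chow hearts. Reads that fit several near-identical histone genes were split between them, and values that are not whole held 8.1 to 52.3% of the histone counts of a library. The level of a single member is therefore less certain than the sum of a type. Hist1h2bq and Hist1h2br had identical values in all 18 libraries, as had Hist1h2ao and Hist1h2ap, so each of these pairs is 1 measurement.

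In heart and kidney the ketogenic diet went with lower histone mRNA for most members of every type, and in liver more members fell than rose. Of the 68 members, 64 passed the filter on low counts in heart, 63 in kidney and 60 in liver. A member could pass the filter through the chow libraries alone. Hist1h1t, Hist1h2aa and Hist1h2ba, which are expressed in testis, and Hist1h2bp passed in no organ, and Hist1h2aa was at 0 in every library. In heart 46 of 64 members fell (adjusted p under 0.05 over all genes by edgeR's quasi-likelihood test, which called 5.81% of all 13609 genes lower, 6.25% higher and 12.1% in either direction). In kidney 47 of 63 fell (5.45% of all 14526 genes were called lower, 3.59% higher and 9.05% in either direction). In liver 32 of 60 fell and 5 rose (17.6% of all 13220 genes were called lower, 19.2% higher and 36.8% in either direction). Rises in liver were thus rarer among the members than among all genes.

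No member rose in heart or kidney by edgeR or DESeq2, and none was higher at an unadjusted p under 0.05. The median log2 fold change, ketogenic minus chow, was -2.40 in heart, -1.65 in kidney and -0.884 in liver, where the median of all genes was -0.031, 0.0015 and 0.0079. The fold change was below 0 for 64 of 64 tested members in heart, 62 of 63 in kidney and 48 of 60 in liver. All 3 ketogenic libraries lay below all 3 chow libraries for 60 members in heart (22.4% of all genes), 53 in kidney (16.7% of all genes) and 33 in liver (28.6% of all genes), and above them for 5 in liver (28.0% of all genes). A bulk library cannot separate fewer cells of a type from less RNA per cell.

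The heart count rested on single libraries. It was 0 of 65 by edgeR without ketogenic replicate 3. That fit has 1 ketogenic sample and takes its spread from the chow hearts, 51 members had an unadjusted p under 0.05 in it, and it called 89 of 14277 genes in all. It was 15 without chow replicate 1, 12 without chow replicate 2 and 57 without chow replicate 3, and the heart call of each member named here was lost without ketogenic replicate 3. The calls over all genes moved too, with 668 of 13615 without chow replicate 1, 459 of 13668 without chow replicate 2 and 3742 of 13384 without chow replicate 3, against 1642 of 13609 with all libraries. The kidney count ran from 34 to 52 and the liver count of lower members from 23 to 34 when 1 library was left out. The 5 liver rises became 3 without chow replicate 2 and 2 without chow replicate 3. Of the 60 members tested in all 3 organs, 27 fell in all 3 (45.0%, against 1.44% of 12106 genes). Of the 63 tested in heart and kidney, 38 fell in both (60.3%, against 1.98% of 13021 genes). At least 1 organ showed a fall for 55 of 64 members (85.9%, against 20.6% of 15512 genes), and 9 tested members passed in no organ.

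**Figure D1:**
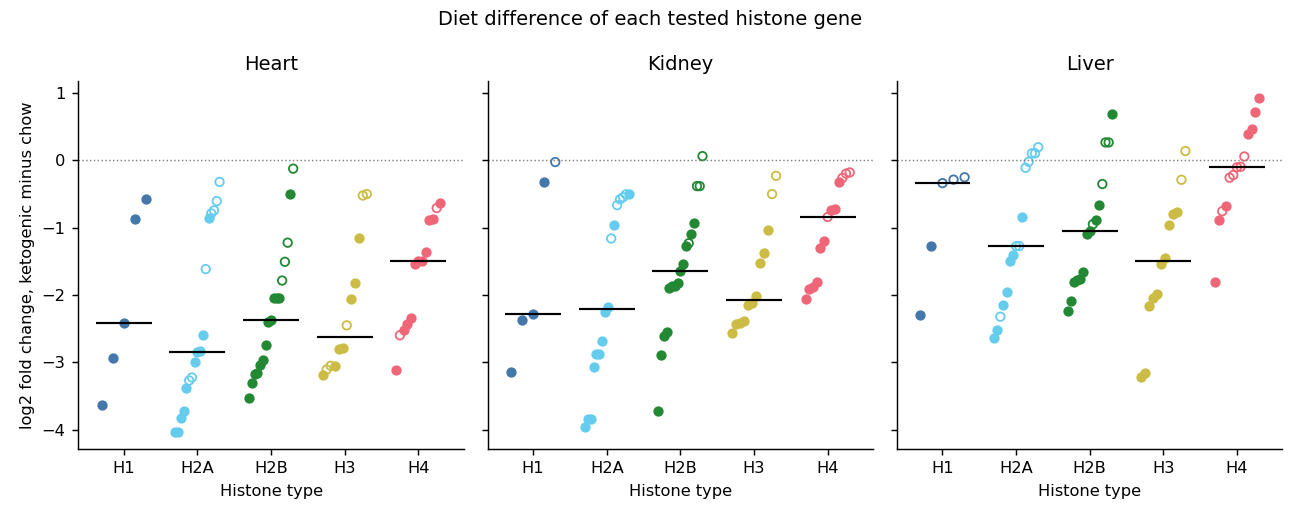
Log2 fold change (ketogenic minus chow, y axis) of each tested histone gene in heart, kidney and liver, by histone type (x axis). Filled points passed the test, open points did not, and the black line is the median of the type. Points lie below 0 in heart and, but for 1 member, in kidney, and 5 filled points of H2B and H4 lie above 0 in liver.

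Because near-identical genes share reads, counts were also summed over all members of a type, tested or not. In heart the sum of all types was 547.7, 535.7 and 444.3 CPM in the ketogenic libraries, against 1265, 1432 and 883.8 CPM in the chow libraries. The ketogenic hearts were all lower, with a mean of 493 ± 68.9 CPM (SD, n = 2) against 1193 ± 281 CPM (n = 3), a log2 ratio of means of -1.28. In kidney the sum was 1026, 926.6 and 906.8 CPM in the ketogenic libraries, against 1644, 1525 and 1384 CPM in the chow libraries. Again the groups did not overlap, and the log2 ratio was -0.67. In liver the sum was 541.4, 547.0 and 406.4 CPM in the ketogenic libraries, against 585.6, 606.9 and 481.1 CPM in the chow libraries. The liver groups overlapped, and their log2 ratio was -0.23.

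The summed H3 level had the largest log2 ratio of the 5 types in each organ. It averaged 33.8 ± 6.33 CPM in ketogenic hearts and 145 ± 59.2 CPM in chow hearts (-2.10), 42.7 ± 2.94 and 142 ± 22.04 CPM in ketogenic and chow kidneys (-1.73), and 28.1 ± 5.10 and 65.9 ± 7.58 CPM in ketogenic and chow livers (-1.23). H2A and H3 did not overlap between the diets in any organ. H1, H2B and H4 sums did not overlap in heart and kidney, and overlapped in liver. The H2A ratio was -1.45, -1.02 and -0.75 in heart, kidney and liver, the H2B ratio -1.56, -0.73 and 0.06, the H4 ratio -1.16, -0.61 and 0.07, and the H1 ratio -0.96, -0.38 and -0.40. A few members carried much of some sums. Hist1h2bc held 36.5 to 47.2% of the H2B count in ketogenic hearts and 16.7 to 27.1% in chow hearts, and 73.0 to 77.1% in ketogenic livers and 44.2 to 53.0% in chow livers. Hist1h1c held 65.1 to 67.5% of the H1 count in ketogenic hearts and 47.7 to 58.8% in chow hearts. Hist1h1c had small diet differences, while Hist1h2bc was lower in ketogenic hearts and higher in ketogenic livers, so a sum can differ from most of its members.

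**Figure D2:**
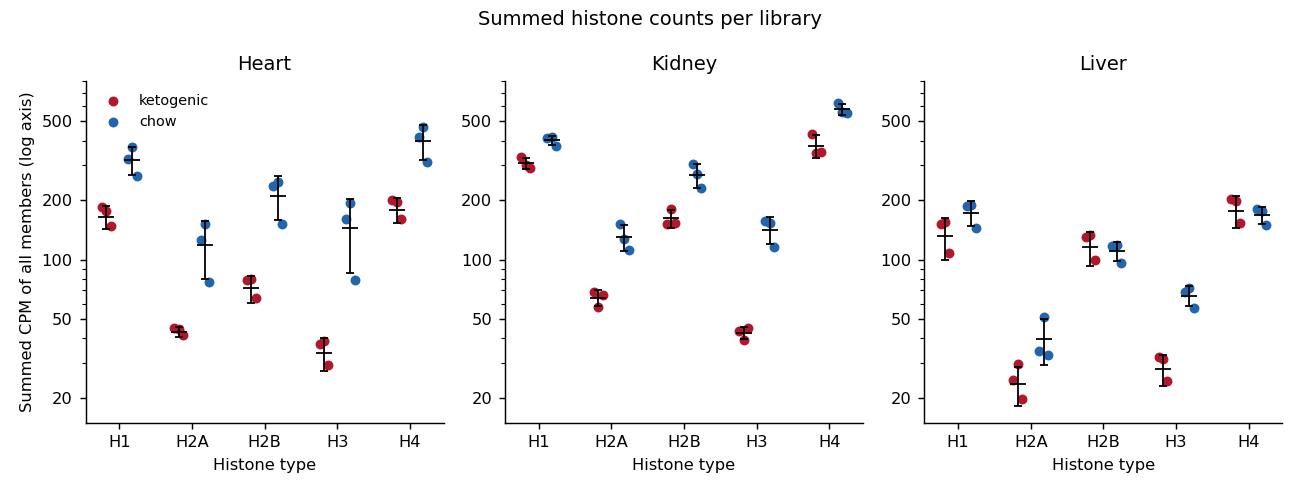
Summed CPM of all members of each histone type (y axis, log scale) in each library, with ketogenic libraries in red left of chow libraries in blue. Bars are means with SD (n = 2 for ketogenic heart and liver, where replicates 1 and 2 count as 1 sample, and 3 elsewhere). H3 sums are separate in every organ, while H1, H2B and H4 sums overlap in liver.

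Of the linker histones, 5 of 6 members were tested in each organ. All 5 fell in heart, 4 in kidney and 2 in liver, with medians of -2.41, -2.28 and -0.337. Hist1h1b (mm9 chr13:21871752-21872423, minus strand, 1 exon) had 2.58, 1.95 and 1.49 CPM in ketogenic hearts, against 31.6, 31.1 and 11.1 CPM in chow hearts. Its groups were far apart, and chow replicate 3 was the lowest of the chow hearts (log2 fold change -3.64, SE 0.64, adjusted p = 0.0363). Its kidney values were 1.15, 0.975 and 1.33 CPM in ketogenic libraries, against 12.4, 9.51 and 8.91 CPM in chow libraries (-3.14, SE 0.21, adjusted p = 0.000419). Its liver values were 1.89, 1.68 and 1.13 CPM in ketogenic libraries, against 6.74, 10.7 and 5.03 CPM in chow libraries (-2.29, SE 0.38, adjusted p = 0.0028). The groups did not overlap in either organ. Hist1h1a fell by 2.94, 2.37 and 1.28 on the log2 scale in heart, kidney and liver, and its liver call did not survive leaving out ketogenic replicate 3, chow replicate 1 or chow replicate 2 (adjusted p = 0.0988, 0.077 and 0.0549).

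Hist1h1c, the most abundant linker histone gene by count, moved little. It had 120, 119 and 100 CPM in ketogenic hearts, against 155, 178 and 156 CPM in chow hearts, a small fall without overlap (-0.57, SE 0.11, adjusted p = 0.021). Its kidney values were 216, 193 and 181 CPM in ketogenic libraries, against 196, 206 and 199 CPM in chow libraries, and the groups overlapped (-0.02, adjusted p = 0.89). Its liver values were 72.0, 71.2 and 53.0 CPM in ketogenic libraries, against 82.2, 83.0 and 65.3 CPM in chow libraries, with overlap (-0.28, adjusted p = 0.174). Hist1h1e, another abundant linker histone gene, was at -0.87 in heart, -0.32 in kidney and -0.34 in liver, and it passed in heart and kidney only. Its kidney call was lost when any 1 library other than ketogenic replicate 1 was left out (adjusted p up to 0.154). Hist1h1d fell by 2.41 in heart and 2.28 in kidney, and was at -0.25 in liver (adjusted p = 0.561), where it had 19.1, 20.8 and 11.1 CPM in ketogenic libraries, against 17.7, 23.4 and 15.7 CPM in chow libraries.

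H2A, which pairs with H2B, fell for 10 of 17 tested members in heart, for 11 of 16 tested in kidney and for 7 of 15 tested in liver. The medians were -2.84, -2.21 and -1.27. Hist1h2ak had 2.69, 2.37 and 1.43 CPM in ketogenic hearts, against 17.1, 20.1 and 6.88 CPM in chow hearts (-2.83, SE 0.59, adjusted p = 0.0461). Its kidney values were 0.904, 1.10 and 1.80 CPM in ketogenic libraries, against 10.7, 7.73 and 6.37 CPM in chow libraries (-2.68, adjusted p = 0.00212). Its liver values were 1.39, 1.88 and 1.02 CPM in ketogenic libraries, against 4.15, 7.56 and 4.42 CPM in chow libraries (-1.95, adjusted p = 0.00164). Its groups were separate in every organ. Hist1h2ag, whose promoter is shown above, fell by 3.72, 2.88 and 2.15 in heart, kidney and liver. The 2 most abundant H2A members by count behaved differently: Hist3h2a was at -0.32 in heart (adjusted p = 0.0951), -0.49 in kidney (adjusted p = 0.00809) and -0.02 in liver (adjusted p = 0.948), and Hist2h2ac at -0.86 (adjusted p = 0.0383), -0.55 (adjusted p = 0.0561) and 0.20 (adjusted p = 0.486). Hist2h2aa1, Hist2h2aa2 and Hist2h2ab passed in no organ, with fold changes from -0.79 to 0.11; these 3 were chosen after their values were seen.

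H2B members fell in 13 of 17 tests in heart, 13 of 17 in kidney and 10 of 15 in liver, where 1 rose; the medians were -2.38, -1.65 and -1.04. Hist1h2bm (mm9 chr13:21813967-21814347, plus strand, 1 exon) had 1.69, 1.48 and 0.778 CPM in ketogenic hearts, against 12.3, 14.5 and 7.07 CPM in chow hearts (-3.16, SE 0.44, adjusted p = 0.0122). In kidney it had 0.603, 0.585 and 0.742 CPM in ketogenic libraries, against 9.50, 8.90 and 7.56 CPM in chow libraries (-3.72, SE 0.21, adjusted p = 0.000213). In liver it had 0.645, 0.838 and 0.484 CPM in ketogenic libraries, against 2.05, 3.65 and 2.58 CPM in chow libraries (-2.09, SE 0.35, adjusted p = 0.000938). No ketogenic library reached the lowest chow library in any organ. Hist1h2bn fell by 3.17, 2.61 and 1.77 and Hist2h2bb by 2.40, 1.86 and 1.04 in heart, kidney and liver.

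Hist1h2bc, the most abundant H2B gene by count, changed direction between organs. It had 29.0, 29.7 and 30.1 CPM in ketogenic hearts, against 43.6, 41.3 and 40.8 CPM in chow hearts, a fall without overlap (-0.50, SE 0.08, adjusted p = 0.0123). In kidney it had 104, 126 and 104 CPM in ketogenic libraries, against 116, 104 and 100 CPM in chow libraries, with overlap (0.06, adjusted p = 0.722). In liver it had 94.8, 100.4 and 76.9 CPM in ketogenic libraries, against 61.9, 52.4 and 50.01 CPM in chow libraries. All ketogenic livers were higher (0.69, SE 0.13, adjusted p = 0.00185), and the call held when any 1 liver library was left out. Its values were not whole in 14 of 18 libraries, so part of its count there comes from reads that were split. Its mm9 model has 2 exons (chr13:23776068-23784349, plus strand). Hist2h2be also differed from the rest in heart, where it was at -0.12 (adjusted p = 0.679), while it fell by 0.93 in kidney and 0.89 in liver; it was chosen after its values were seen.

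**Figure D3:**
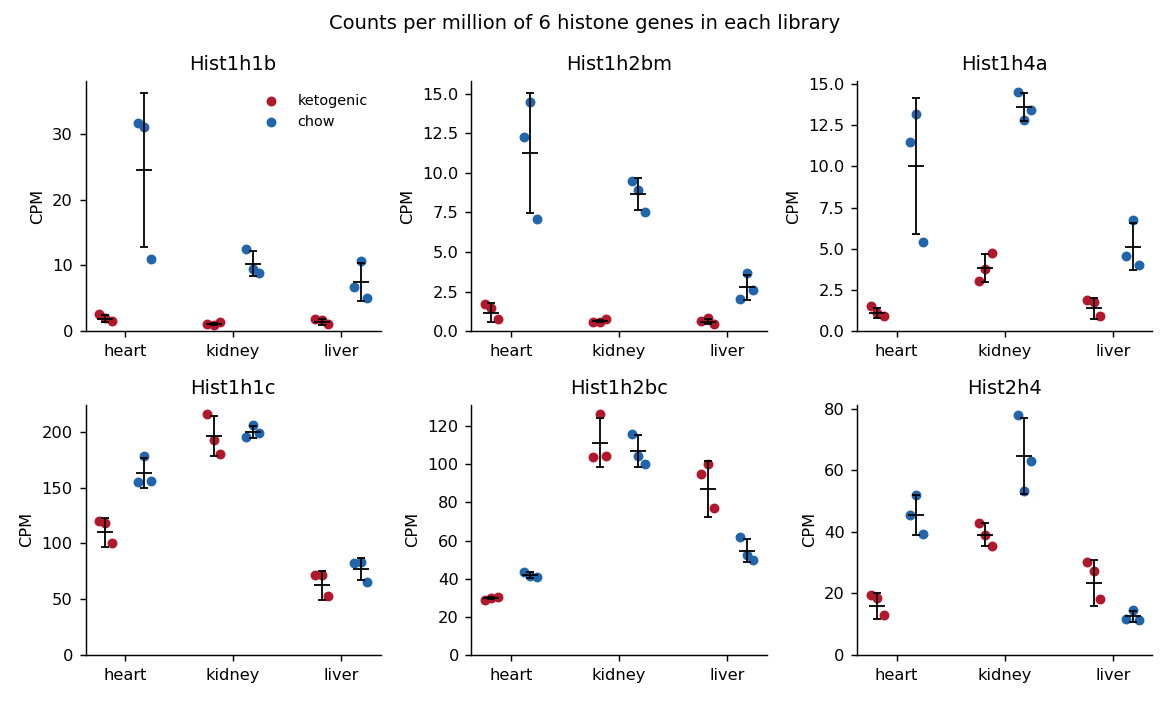
CPM (y axis, from 0) of 6 histone genes in each library by organ, with ketogenic libraries in red left of chow libraries in blue and bars for mean and SD (n = 2 for ketogenic heart and liver, 3 elsewhere). Hist1h1b, Hist1h2bm and Hist1h4a are lower in every ketogenic library of every organ, and Hist1h2bc and Hist2h4 are higher in the ketogenic livers.

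H3, which forms the centre of the spool with H4, fell for 7 of 12 tested members in heart, 10 of 12 in kidney and 10 of 12 in liver, and the medians were -2.62, -2.07 and -1.49. Hist1h3g had 1.27, 1.18 and 0.648 CPM in ketogenic hearts, against 6.07, 11.2 and 3.44 CPM in chow hearts (-2.79, SE 0.61, adjusted p = 0.0422). In kidney it had 0.724, 1.56 and 2.02 CPM in ketogenic libraries, against 7.59, 7.67 and 7.47 CPM in chow libraries (-2.38, SE 0.30, adjusted p = 0.0027). In liver it had 0.347, 0.471 and 0.269 CPM in ketogenic libraries, against 3.87, 3.59 and 2.67 CPM in chow libraries (-3.21, SE 0.34, adjusted p = 4.42e-05). Hist1h3g was thus separate between the diets in each organ. In liver it passed the filter on low counts through the chow libraries only, so its liver fold and p carry less weight. Hist1h3b fell by 3.19, 2.15 and 3.16, and Hist1h3e, the most abundant H3 member by count, by 1.15, 1.37 and 0.79 in heart, kidney and liver. The kidney call of Hist1h3e was lost without chow replicate 1 (adjusted p = 0.0539), and that of Hist1h3c, at -2.42, was lost when any 1 library other than ketogenic replicate 1 was left out (adjusted p up to 0.108). Hist2h3c1 and the pseudogene Hist2h3c2-ps passed in no organ, with fold changes from -0.52 to 0.14; both were chosen after their values were seen.

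H4 members had the smallest median difference of the core types in each organ, with 11 of 13 lower in heart, 9 of 13 in kidney, and 3 lower and 4 higher in liver (medians -1.50, -0.841 and -0.101). Hist1h4a (mm9 chr13:23852715-23853026, minus strand, 1 exon) had 1.54, 1.08 and 0.908 CPM in ketogenic hearts, against 11.5, 13.2 and 5.39 CPM in chow hearts (-3.12, SE 0.47, adjusted p = 0.0146). In kidney it had 3.01, 3.77 and 4.73 CPM in ketogenic libraries, against 14.5, 12.8 and 13.4 CPM in chow libraries (-1.81, SE 0.18, adjusted p = 0.00129). In liver it had 1.89, 1.78 and 0.924 CPM in ketogenic libraries, against 4.57, 6.76 and 4.04 CPM in chow libraries (-1.80, SE 0.33, adjusted p = 0.00228). Its groups were separate in each organ.

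Hist2h4, Hist4h4, Hist1h4c and Hist1h4h rose in liver and fell in heart. Hist2h4 (mm9 chr3:96066893-96067240, minus strand, 1 exon) had 30.2, 27.2 and 18.1 CPM in ketogenic livers, against 11.6, 14.5 and 11.4 CPM in chow livers, with every ketogenic library higher (0.93, SE 0.20, adjusted p = 0.00823). In heart it had 19.6, 18.3 and 12.8 CPM in ketogenic libraries, against 45.5, 52.0 and 39.2 CPM in chow libraries (-1.50, SE 0.20, adjusted p = 0.0101), and in kidney 42.8, 39.1 and 35.4 CPM in ketogenic libraries, against 77.9, 53.3 and 62.9 CPM in chow libraries (-0.72, SE 0.14, adjusted p = 0.0179). The ketogenic libraries were thus the higher ones in liver and the lower ones in heart and kidney. Hist4h4, whose values were whole in every library, had 8.34, 7.59 and 6.34 CPM in ketogenic livers, against 4.28, 5.75 and 3.22 CPM in chow livers (0.72, SE 0.23, adjusted p = 0.0328). In heart it had 10.7, 9.23 and 9.40 CPM in ketogenic libraries, against 19.7, 19.2 and 14.5 CPM in chow libraries (-0.87, SE 0.16, adjusted p = 0.0176). Hist4h4 groups did not overlap in these organs, and in kidney it was at -0.26 (adjusted p = 0.213).

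Hist1h4c had 29.5, 31.1 and 24.1 CPM in ketogenic livers, against 22.6, 19.2 and 17.995 CPM in chow livers (0.47, SE 0.13, adjusted p = 0.0183), and was at -0.89 in heart and -0.18 in kidney. Hist1h4h was at 0.39 in liver, -0.63 in heart and -0.32 in kidney. Their liver calls did not hold in every fit that left out 1 library: without chow replicate 2 the adjusted p was 0.0559 for Hist1h4c and 0.0882 for Hist1h4h, and without chow replicate 3 it was 0.0533 for Hist1h4c and 0.0864 for Hist1h4h. DESeq2 did not call Hist1h4h in liver (adjusted p = 0.0583). The liver call of Hist4h4 was also lost without chow replicate 3, and those of Hist2h4 and Hist1h2bc then remained. The kidney call of Hist1h4h was lost when any 1 library other than ketogenic replicate 1 was left out (adjusted p up to 0.14). Hist1h4d, among the most abundant H4 members by count, passed in no organ: it had 66.03, 56.9 and 47.98 CPM in ketogenic hearts, against 81.6, 109.9 and 77.7 CPM in chow hearts (-0.71, adjusted p = 0.0598), and was at -0.84 in kidney (adjusted p = 0.0792) and 0.06 in liver (adjusted p = 0.717).

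Levels of different genes were compared per kilobase of the exons in the count files. Hist1h4d was highest in ketogenic hearts at 172 ± 30.2 CPM per kilobase and in chow hearts at 282 ± 55.1, and in ketogenic livers at 179 ± 20.4 and chow livers at 176 ± 17.4. Hist1h4c was highest in ketogenic kidneys at 275 ± 31.2 CPM per kilobase and in chow kidneys at 308 ± 19.3. In ketogenic livers the ranges of Hist1h4d (164 to 194 CPM per kilobase) and Hist1h2bc (142 to 188) overlapped, so their order is within the spread. In chow livers Hist1h4d stood above Hist1h2bc, at 160 to 194 against 94.2 to 117 CPM per kilobase. Some exon models hold the coding sequence only, which raises the level per kilobase of those members.

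The diet difference was itself compared between organs, as a contrast in 1 model of all groups, over 64 members. It differed between heart and kidney for 1 member (2.5% of all 15695 genes), between heart and liver for 17 (23.5% of all genes) and between kidney and liver for 10 (21.8% of all genes). As shares of the members these are 1.56%, 26.6% and 15.6%, so the number of differences between heart and liver was near that of all genes and the number between kidney and liver was below it. All 17 and all 10 were more negative in heart or kidney than in liver. By type, 9 of 13 H4, 6 of 17 H2B, 1 of 5 H1, 1 of 17 H2A and 0 of 12 H3 members differed between heart and liver, and 7 of 13 H4, 2 of 17 H2B, 1 of 5 H1 and none of the H2A and H3 members between kidney and liver. For Hist2h4 the difference of fold changes was -2.39 between heart and liver (SE 0.32, adjusted p = 0.000213) and -1.63 between kidney and liver (SE 0.29, adjusted p = 0.00174). For Hist1h2bc it was -1.14 between heart and liver (SE 0.18, adjusted p = 0.000529), and for Hist1h4c -1.31 (SE 0.20, adjusted p = 0.000398). Hist1h1d differed by -2.01 between kidney and liver (SE 0.44, adjusted p = 0.00664).

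The 1 member that differed between heart and kidney was Hist1h4b. It had 2.65, 2.43 and 2.20 CPM in ketogenic hearts, against 16.1, 16.7 and 8.35 CPM in chow hearts, and 18.4, 18.3 and 19.7 CPM in ketogenic kidneys, against 35.5, 32.2 and 26.2 CPM in chow kidneys. Both organs were lower on the ketogenic diet without overlap, by 2.51 and 0.73 on the log2 scale, and the difference was -1.76 (SE 0.35, adjusted p = 0.0191). The call was lost without ketogenic heart replicate 3 (adjusted p = 0.104). The count between heart and kidney was then 0, and it was 2 without ketogenic liver replicate 3 and 6 without chow heart replicate 3. Without chow heart replicate 3 the count between heart and liver was 30, and without chow kidney replicate 1 the count between kidney and liver was 5.

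**Figure D4:**
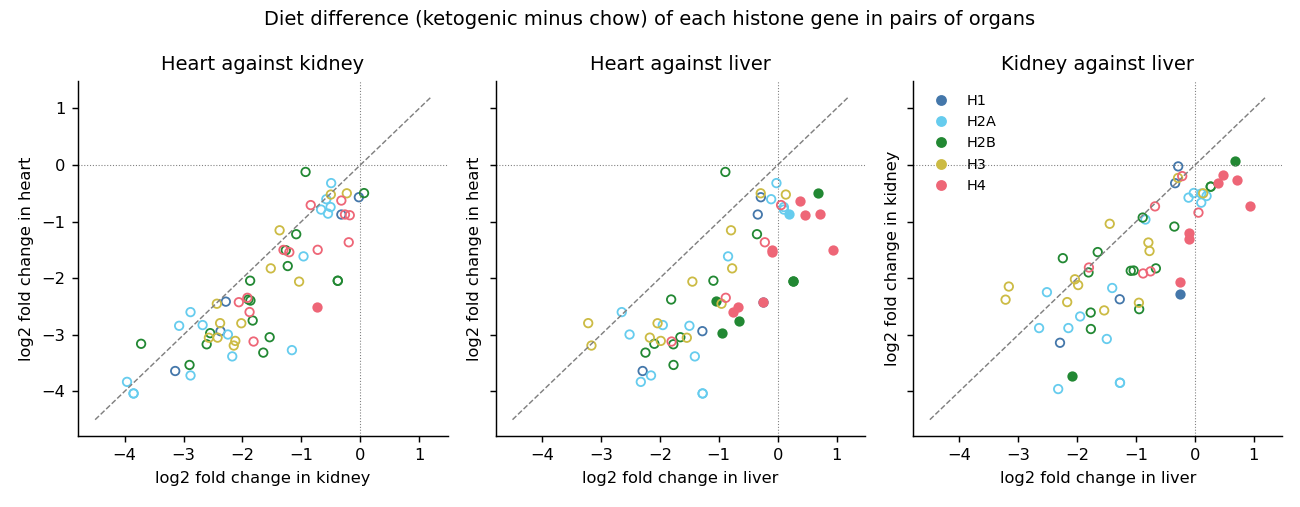
Log2 fold change (ketogenic minus chow) of each histone gene in the first organ (y axis) against the second (x axis), for genes tested in both, coloured by type. Filled points are members whose diet difference differed between the organs, and the dashed line marks equal differences. In the panels with liver most filled points are H4 members that lie below the line.

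Members were also described by how far the GENCODE transcript runs beyond the stem-loop, with a split at 300 bases that was chosen after the values were seen and so carries no test. In 17 members the transcript ran on for at least 300 bases, in 28 it ended sooner, in 22 no stem-loop was found in the transcript, and Hist2h3c2-ps had no transcript. The counts use mm9 exon models, which in the long group held 312 bases for Hist1h4c and Hist1h4d and 2977 for Hist1h1d. For the short models the stretch beyond the stem-loop was therefore not counted. Whether the transcripts with no stem-loop found end before it was not checked. The median log2 fold change of the long group was -1.22 in heart, -0.841 in kidney and -0.256 in liver. That of the short group was -2.79 in heart (26 tested), -1.87 in kidney (25 tested) and -1.34 in liver (24 tested). In heart 11 of 17 were called lower in the long group and 21 of 26 in the short group (5.81% of all genes). In kidney these counts were 11 of 17 and 22 of 25 (5.45% of all genes). In liver 4 were lower and 3 higher of 17, against 15 lower and 1 higher of 24. Of all genes in liver, 17.6% were called lower and 19.2% higher, so the long group was near those shares there. The members with no stem-loop in the transcript had medians of -2.53 in heart, -2.08 in kidney and -1.36 in liver, close to those of the short group. Summed over members, the long group averaged 328 ± 41.8 CPM in ketogenic hearts and 626 ± 106 CPM in chow hearts, and the short group 95.7 ± 19.0 CPM in ketogenic hearts and 321 ± 104 CPM in chow hearts.

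Several members did not follow this split. Among the long group, Hist1h1d, Hist1h2bh, Hist1h3d and Hist1h4j were at -2.41, -2.97, -3.11 and -2.42 in heart. Hist1h3d did not pass the test in heart and was chosen after its values were seen. In the short group, Hist1h4h was at -0.63 in heart and rose in liver, and Hist2h2aa1 and Hist2h2aa2 passed in no organ. Over the tested members with a stem-loop, Spearman's rho of the bases beyond it with the log2 fold change was 0.51 in heart (43 members), 0.37 in kidney (42) and 0.37 in liver (41). These points share libraries, reads and, for several members, nearly the same sequence. The short transcripts were also the less abundant by summed count, and the part of abundance in these values was not tested. The labels name a stranded mRNA library guide without spelling out how mRNA was selected, so the share of histone RNA without a poly(A) tail in these libraries is not known, and its part in the levels was not tested.

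**Figure D5:**
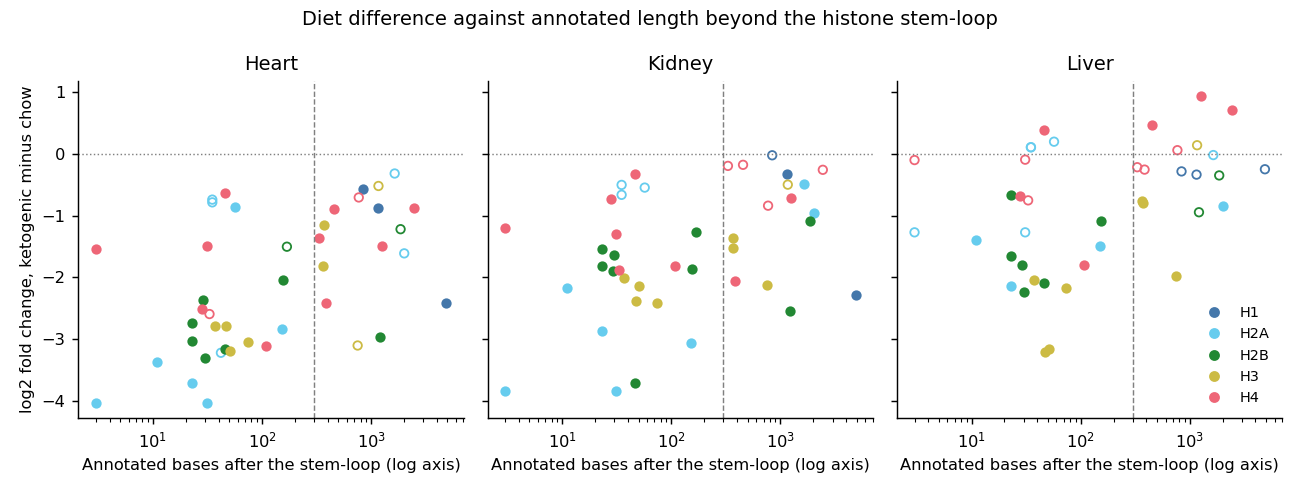
Log2 fold change (ketogenic minus chow, y axis) against the annotated bases after the stem-loop (x axis, log scale) for tested members with a stem-loop, coloured by type. Filled points passed the test and the dashed line marks 300 bases. The lowest values lie mostly left of the line, and the exceptions on the right include Hist1h1d and Hist1h2bh.

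Many H2A and H2B genes are neighbours transcribed away from each other, and on mm9 the files hold 11 such pairs at most 500 bases apart. Hist1h2ak and Hist1h2bn, 295 bases apart, were at -2.83 and -3.17 in heart, -2.68 and -2.61 in kidney and -1.95 and -1.77 in liver. Hist1h2ag and Hist1h2bj, 280 bases apart, were at -3.72 and -3.04 in heart, -2.88 and -1.54 in kidney and -2.15 and -1.65 in liver. All 4 genes fell in every organ. Hist1h2ac and Hist1h2bc, 239 bases apart, were at -1.61 and -0.50 in heart, -0.96 and 0.06 in kidney, and -0.84 and 0.69 in liver. In liver the H2A gene of that pair fell (adjusted p = 0.0373) and the H2B gene rose. Hist1h2ac was chosen after its values were seen.

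Other genes of the same pathway were described by lists. The list of S phase genes holds genes that copy DNA, start its copying or supply its building blocks, and markers of dividing cells such as Mki67. It had 8 of 23 lower in heart (5.81% of all genes), 16 of 23 in kidney (5.45%) and 13 of 23 in liver (17.6%), and none higher. The medians were -1.02, -0.775 and -1.41 in heart, kidney and liver. The lists were not tested as sets, and the medians and shares of all genes given above are their background. In liver Ccna2, the S phase cyclin, averaged 0.719 ± 0.256 CPM on the ketogenic diet and 11.8 ± 2.58 CPM on chow (-3.94, adjusted p = 5.86e-06). Rrm2, which supplies DNA building blocks, averaged 6.61 ± 1.78 CPM in ketogenic kidneys and 25.4 ± 2.71 CPM in chow kidneys (-1.93, adjusted p = 0.0015), and Tk1, thymidine kinase, 0.754 ± 0.333 CPM in ketogenic hearts and 4.75 ± 1.18 CPM in chow hearts (-2.58, adjusted p = 0.00937). The heart count of this list was 0 without ketogenic replicate 3, 3 without chow replicate 1 or 2, and 17 without chow replicate 3. The kidney count was 10 without chow replicate 1, 1 gene was higher in kidney without ketogenic replicate 1, and the liver count 8 without ketogenic replicate 3. All 3 ketogenic sums of the list lay below all chow sums in each organ, at 149 to 169 against 202 to 321 CPM in heart, 257 to 308 against 431 to 527 CPM in kidney, and 162 to 177 against 304 to 464 CPM in liver. In liver 10 of the 23 did not pass the test.

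Genes that make and process histone mRNA showed few calls, with none of 16 tested in heart. In kidney 1 of 16 was lower and in liver 4 of 17, near the 5.45% and 17.6% of all genes. The medians of these genes were -0.0252, -0.0218 and -0.212 in heart, kidney and liver. In heart DESeq2 called 2 of them higher, and edgeR called 1 lower and 2 higher without chow replicate 3 and 1 higher without ketogenic replicate 2. Slbp, the stem-loop binding protein, averaged 13.3 ± 1.40 CPM in ketogenic kidneys and 18.8 ± 0.403 CPM in chow kidneys (-0.50, adjusted p = 0.0215), and 7.28 ± 0.638 CPM in ketogenic livers and 10.3 ± 1.65 CPM in chow livers (-0.48, adjusted p = 0.0396). Its kidney call was lost when any 1 library other than ketogenic replicate 1 was left out (adjusted p up to 0.0914), and its liver call held only without ketogenic replicate 2 or chow replicate 3 (adjusted p in the other fits up to 0.169). The other liver falls were Sympk (-0.50), a scaffold of the cleavage complex, Cpsf3 (-0.28), the nuclease that cuts histone pre-mRNA, and Zfp473, which binds the processing complex. Cpsf3 was not called when ketogenic replicate 3 or a chow library was left out (adjusted p = 0.0637 to 0.112) and under total-count scaling (adjusted p = 0.0627). Zfp473 had only 0.0496, 0.0523 and 0.0537 CPM in ketogenic livers, against 0.684, 0.210 and 0.544 CPM in chow livers, so it entered the test through the chow libraries and no fold is given. Its call was lost without ketogenic replicate 3 (adjusted p = 0.0526). The liver count was 1 without ketogenic replicate 3 or chow replicate 1, and 2 without chow replicate 2 or 3.

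Replacement histones, which are made throughout the cell cycle, had 4 of 11 lower in heart (5.81% of all genes) and 4 in kidney (5.45%). In liver 4 were lower (17.6% of all genes) and 2 higher, near the 19.2% of all genes. The medians were -0.344, -0.371 and -0.299 in heart, kidney and liver. H2afx, which marks DNA breaks once phosphorylated, fell by 1.08 in kidney and 1.11 in liver on the log2 scale (adjusted p = 0.0032 and 7.91e-05). In heart it was at -1.31 with an adjusted p that rounds to 0.05, just under the threshold. That call was lost under RLE scaling (adjusted p = 0.0523), with no filter on low counts (0.0771), and in the fits that dropped ketogenic replicate 2, ketogenic replicate 3, chow replicate 1 or chow replicate 2 (0.0585 to 0.294). H3f3a, a gene for the replacement histone H3, averaged 152 ± 9.21 CPM in ketogenic hearts and 207 ± 8.40 CPM in chow hearts (-0.44, adjusted p = 0.0231), and 132 ± 28.0 CPM in ketogenic livers and 86.8 ± 8.005 CPM in chow livers (0.62, adjusted p = 0.00494). It thus moved down in heart and up in liver, the same directions as Hist2h4. Cenpa, the centromeric H3, fell by 1.58 in kidney and 0.93 in liver, and its liver call was lost without ketogenic replicate 3 (adjusted p = 0.0506). The heart count was 0 without ketogenic replicate 3 or chow replicate 2 and 2 without chow replicate 1, and the kidney count 7 without ketogenic replicate 1.

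Histone chaperones, which hand histones to DNA, had 2 of 19 lower in heart (5.81% of all genes) and 4 in kidney (5.45%). In liver 5 were lower (17.6% of all genes) and 3 higher (19.2%), and calls in either direction were near the 36.8% of all genes. The medians were -0.12, -0.129 and -0.126 in heart, kidney and liver. Asf1b, which hands H3 and H4 to CAF-1, fell by 1.21 in heart, 1.98 in kidney and 2.40 in liver. The CAF-1 subunits Chaf1a and Chaf1b fell by 1.16 and 1.44 in kidney and by 2.14 and 1.51 in liver, and were at -0.66 (adjusted p = 0.124) and -1.82 (adjusted p = 0.06) in heart. Chaf1b was no longer called in kidney once ketogenic replicate 3, chow replicate 1 or chow replicate 2 was left out (adjusted p up to 0.0957). Nap1l1, which carries H2A and H2B, rose by 0.52 in liver. The heart count became 0 when ketogenic replicate 3, chow replicate 1 or chow replicate 2 was dropped, and without chow replicate 3 it was 6 lower and 1 higher.

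Summed markers of several cell types were separate between the diets. Cardiomyocyte markers summed to 62276 to 66012 CPM in ketogenic hearts and 49125 to 58927 CPM in chow hearts, and kidney tubule markers to 29189 to 38038 CPM in ketogenic kidneys and 27133 to 29187 CPM in chow kidneys, with 0 of 5 and 0 of 6 passing the test. In heart the summed level of 9 erythroid markers was 571 to 1319 CPM in ketogenic libraries and 2333 to 3318 CPM in chow libraries, without overlap, with 0 of 6 tested passing and none at 0 in every library. That of the 8 macrophage markers was 308 to 315 CPM in ketogenic hearts and 500 to 566 CPM in chow hearts, with 7 of 8 lower. In liver the summed level of 5 neutrophil markers was 2.15 to 4.66 CPM on the ketogenic diet and 0.0453 to 0.592 CPM on chow (3 of 3 tested higher). At so low a chow level these genes could enter the test through the ketogenic libraries alone, so the 3 calls carry no weight of their own. The summed level of 8 lymphocyte markers was 17.6 to 30.9 CPM in ketogenic livers and 12.9 to 16.7 CPM in chow livers (2 of 7 tested higher). That of 5 adipocyte markers was 56.2 to 116 CPM in ketogenic livers and 0.0453 to 0.0840 CPM in chow livers (1 of 1 tested higher), with Lep and Retn at 0. Only 1 of these 5 passed the filter on low counts, so the sum rests mainly on that gene rather than on the list. That gene entered the test through the ketogenic libraries, so its call carries no weight of its own. Hepatocyte markers summed to 67032 to 72292 CPM in ketogenic livers and 110140 to 118700 CPM in chow livers, with 3 of 5 lower. Of all genes, 17.6% were called lower and 19.2% higher in liver, and 5.81% lower in heart. Lymphocyte and macrophage sums overlapped between the diets in kidney, as did erythroid sums. The part of these cells in the histone differences was not tested.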

How the data were processed

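RNA was prepared with a stranded mRNA kit, per the labels' protocols. Per the file headers, the authors counted read pairs with featureCounts 1.5.0 on the UCSC mm9 genes, on the reverse strand, with a minimum mapping quality of 2 and with multi-mapping and overlapping reads split as fractions, so the deposited values are estimated counts. HISAT2 2.1.0, SAMtools and bcl2fastq appear in the submitters' processing notes. Aligning and counting were not repeated. Counts were rounded, filtered with filterByExpr, scaled by TMM and tested per organ with edgeR 4.0.16 (robust quasi-likelihood test, R 4.3.3), with Benjamini-Hochberg adjustment over all genes of the organ and a threshold of 0.05. SE is the log2 fold change divided by the square root of F. Organ differences were contrasts in 1 model of all 6 groups. In heart and in liver the near-identical ketogenic replicates 1 and 2 were summed into 1 sample each. CPM are counts per 1000000 of the TMM-scaled library size, computed within each organ. Each p-value weighs a difference against the spread between these samples, which edgeR moderates across genes. In heart and liver that spread comes from 2 ketogenic and 3 chow samples.

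Alternatives were DESeq2 1.42.0, RLE and total-count scaling, other filters, the pair as separate libraries, a replicate block and leaving out each library. The test was checked on simulated data with 200 changed genes, each at 4 CPM or more. Of genes changed 2-fold it recovered 79.1% in heart, 82.1% in kidney and 92.5% in liver. Of its calls 8.9%, 7.06% and 9.24% were false, more than the threshold is set to allow. Hist1h2bm and Hist1h3g were below 4 CPM in every liver library. The simulation held no changed genes at such levels, so its recovery does not describe these members there. Named members are, per organ and type, up to 3 with the highest mean CPM and up to 3 with the smallest adjusted p, up to 5 per organ difference, and up to 4 per organ from each list of other genes. Other members are named for traits such as sequence, position or low counts, or are said to be chosen after their values were seen. The members and lists were chosen with earlier results of these data known. mm9 coordinates come from the files, while promoter and stem-loop sequences come from GRCm38 annotation and were matched by gene name or ID.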

Additional observations from a re-analysis of the deposited data

Results flagged for a closer look

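The diet effect differed between organs, by a test of the difference itself, for the members given here. The values are differences of log2 fold changes (ketogenic minus chow), the first organ minus the second.

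Between heart and kidney the difference was -1.758 for Hist1h4b. Between heart and liver it was -2.391 for Hist2h4, -1.314 for Hist1h4c, -1.143 for Hist1h2bc, -0.9722 for Hist1h4h and -1.551 for Hist4h4. By edgeR each of these 5 members was higher in ketogenic livers and lower in ketogenic hearts, and DESeq2 did not call Hist1h4h in liver. Between kidney and liver it was -1.629 for Hist2h4, -2.007 for Hist1h1d, -0.6809 for Hist1h4h, -1.179 for Hist1h4n and -1.775 for Hist1h4j. Hist1h1d, Hist1h4n and Hist1h4j had log2 fold changes of -2.28, -1.30 and -2.06 in kidney and of -0.25, -0.09 and -0.26 in liver. Ketogenic and chow livers serve both differences with liver, and heart and kidney samples also recur across the differences. These values are therefore not independent of each other.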

How the results depend on the processing

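Without chow replicate 3, 63 of 64 members were below 0 in heart, and under total-count scaling 63 of 63 in kidney. By DESeq2, and with the near-identical pair as separate libraries, 1 member was more positive in heart than in liver. The same count of 1 came without ketogenic kidney replicate 3, ketogenic liver replicate 1 or chow heart replicate 3. Leaving out 1 library gave 0 to 57 lower members in heart, 34 to 52 in kidney and 23 to 34 in liver, 2 to 5 higher members in liver, and 0 to 6, 12 to 30 and 5 to 14 members whose diet effect differed between heart and kidney, heart and liver, and kidney and liver. The heart values of 0, 15 and 12 came without ketogenic replicate 3, chow replicate 1 and chow replicate 2, and the liver values of 3 and 2 without chow replicates 2 and 3. Between heart and kidney, where 1 member differed, DESeq2 gave 2, total-count scaling 3 and the near-identical pair as separate libraries 3.

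Replicate numbers did not pair the samples (correlations of deviations -0.182 to 0.173). With the replicate number as a block and the pair as separate libraries, 55 members were lower in heart and 7, 34 and 21 differed between heart and kidney, heart and liver, and kidney and liver. With the block 41 were lower in kidney. DESeq2 called 7 replacement histones lower in kidney. Under total-count scaling the median log2 fold change of all genes in heart was -0.169, in place of -0.0314, and 53 members were lower there. With no filter on low counts 34 were lower in heart (32 of the 46), and Hist1h2ag, Hist1h2ak, Hist1h3c and Hist1h3e were not among them (adjusted p = 0.0538 to 0.0945). The summed log2 ratio over all types ran from -1.452 to -1.124 in heart, -0.7327 to -0.6095 in kidney and -0.327 to -0.0357 in liver when 1 library was left out. Shared reads, 2 ketogenic samples in heart and liver, and the unstated mRNA selection limit these values.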
